A study of Mus musculus with 12 samples.

Results

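Microtubule motor and tubulin genes were followed through 3 cell populations sorted from the adult mouse dentate gyrus. Genes were taken by symbol: kinesins and kinesin light chains, dynein subunits, alpha, beta, gamma and epsilon tubulins with the gamma-tubulin complex, microtubule-associated proteins of the Map1, Map2, Map4, Map6, Map7, Mapre and tau families, and stathmins, without Stmn2, Stmn4 and Tubb3. Of 10749 genes in the deposited table, 69 had such a name. After the 3 left out by name and 4 that were above 0 in fewer than 4 libraries, 62 members remained. Of the 62, 58 passed the filter on low values and were tested. Kif16bos and Dnah10 lay just inside the rule, above 0 in 4 libraries each. Dnah12 and Tubal3 lay just outside, above 0 in 3 libraries each.

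The mice were 8 weeks old and carried LPA1-GFP, a green fluorescent reporter of the lysophosphatidic acid receptor gene Lpar1. Per the labels, the transgene came on a mixed FVB/N and Swiss Webster background and was rederived in C57BL/6, and no group lacked it. Stem libraries held cells labelled neural stem cells, positive for LPA1-GFP, EGFR (a growth factor receptor) and Prominin1 (a membrane glycoprotein). Progenitor libraries held GFP-positive cells that lacked EGFR, Prominin1 or both, where a label part that reads EGF- was taken as EGFR-negative. Niche libraries held GFP-negative cells. Egfr was at 24.7 to 39.0 RPKM in stem libraries, 1.09 to 10.1 in progenitor libraries and 1.20 to 21.2 in niche libraries. Sox2, a neural stem cell gene also used by astrocytes, was present in all populations, at 38.4 to 65.3 RPKM in stem libraries, 35.9 to 50.8 in progenitor libraries and 20.04 to 56.0 in niche libraries. Prominin1 and Lpar1 were not analysed here. Each population had n = 4 libraries, each from the amplified RNA of 1000 cells. The labels do not say whether a library stands for 1 animal or for pooled animals, and the p-values therefore speak only of library-to-library spread, which may be partly technical.

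Kinesins walk along microtubules, mostly towards the plus end, and dynein walks towards the minus end. In a dividing cell a set of kinesins builds the spindle, lines up chromosomes and completes cytokinesis. In a neuron, other kinesins and dynein carry cargo along axons and dendrites, on tracks that Map2, tau and related proteins stabilise. The dentate gyrus keeps neural stem cells that divide in adult life and give rise to granule neurons, so both uses of the microtubule system occur in it. By known role, 8 members are mitotic kinesins and 13 are neuronal, of which 7 are motors or motor parts and 6 are microtubule-associated proteins. The other 41 have broad, ciliary or nucleating roles, or are antisense genes.

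Values are RPKM (reads per kilobase of exon, scaled to library size), here rescaled by the trimmed mean of log ratios between libraries. Library totals ran from 7597256 to 22854036 reads. Niche replicate 1 and progenitor replicate 1 stood apart from their groups, so results that rest on them are given with and without both. Marker genes differed between populations. The 6 listed of 10 macrophage markers summed to 1965 to 7527 RPKM in stem libraries, 115 to 229 in progenitor libraries and 2601 to 4805 in niche libraries. These 6 differed in direction between stem and niche. Mrc1 averaged 355 RPKM in stem and 8.28 in niche, Adgre1 285 and 44.7, Csf1r 550 and 272, and Tyrobp 1479 and 1339. Trem2 averaged 113 RPKM in stem and 289 in niche, and Ctss 900 and 2096. The 3 listed of 8 markers of dividing cells (Rrm2, Plk1 and Pclaf) summed to 391.7 to 727 RPKM in stem libraries, 104 to 203 in progenitor libraries and 5.67 to 15.8 in niche libraries. For the 4 listed of 7 mature neuron markers the sums were 13.8 to 24.7 RPKM in stem libraries, 19.4 to 53.4 in progenitor libraries and 119 to 570 in niche libraries. For the 5 listed of 7 young neuron markers, among them the Stmn2, Stmn4 and Tubb3 left out above, the sums were 57.2 to 105 RPKM in stem libraries, 846 to 2254 in progenitor libraries and 250 to 509 in niche libraries. Of these 5, Eomes ran the other way between stem and niche. It averaged 23.2 RPKM in stem, 41.6 in progenitor and 0.719 in niche. No marker of these 4 lists was at 0 in any library. Their part in the differences below was not tested. In such bulk libraries, fewer cells of a type and less RNA per cell cannot be told apart.

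Mitotic kinesins were highest in stem, intermediate in progenitor and lowest in niche by their group means. Kif11, the motor that pushes spindle poles apart (ENSMUSG00000012443, GRCm38 chromosome 19, 37376403 to 37421859), was at 38.9, 16.3, 29.0 and 30.1 RPKM in stem replicates 1 to 4. It was at 10.04, 5.24, 9.17 and 10.8 RPKM in progenitor replicates 1 to 4 and at 0.831, 0.131, 0.573 and 0.927 RPKM in niche replicates 1 to 4. The 3 groups did not overlap, and the niche values rested on 10 to 35 reads a library, against 912 to 2155 in stem. Kif15, which shares the pole-separating work of Kif11, was at 19.1, 12.6, 18.5 and 17.1 RPKM in stem, at 4.46, 4.93, 5.16 and 8.88 in progenitor and at 0.515, 0.184, 0.508 and 0.526 in niche. Kif4, a chromosome-bound kinesin that also organises the central spindle, was at 28.9, 23.5, 23.9 and 25.1 RPKM in stem, at 2.24, 6.56, 6.93 and 9.88 in progenitor and at 0.691, 1.11, 0.636 and 1.83 in niche. Both genes kept the 3 groups apart.

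Kif20a, which brings the Aurora B complex to the midzone, had the highest levels of the mitotic members. It was at 107, 61.6, 86.5 and 88.5 RPKM in stem, at 17.3, 22.7, 30.9 and 37.4 in progenitor and at 2.26, 3.90, 7.96 and 12.4 in niche. Kif14, a motor needed for cytokinesis, had lower levels throughout, at 7.85, 4.76, 6.50 and 4.55 RPKM in stem, 0.203, 0.797, 1.31 and 1.32 in progenitor and 0.0693, 0.0230, 0.0574 and 0.144 in niche. Its niche values stood for 3 to 8 reads. Kif20b, another cytokinesis motor, was at 21.4, 10.8, 16.4 and 16.5 RPKM in stem, at 0.223, 4.69, 5.34 and 4.56 in progenitor and at 0.445, 0.102, 0.170 and 0.161 in niche. Progenitor replicate 1 lay inside the niche range for Kif20b, with 17 reads against 504 to 729 in the other progenitor libraries. The same library held 5 reads of Kif18a, which damps chromosome movement at the spindle equator, against 400 to 1098 in the other 3.

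**Figure D1:**
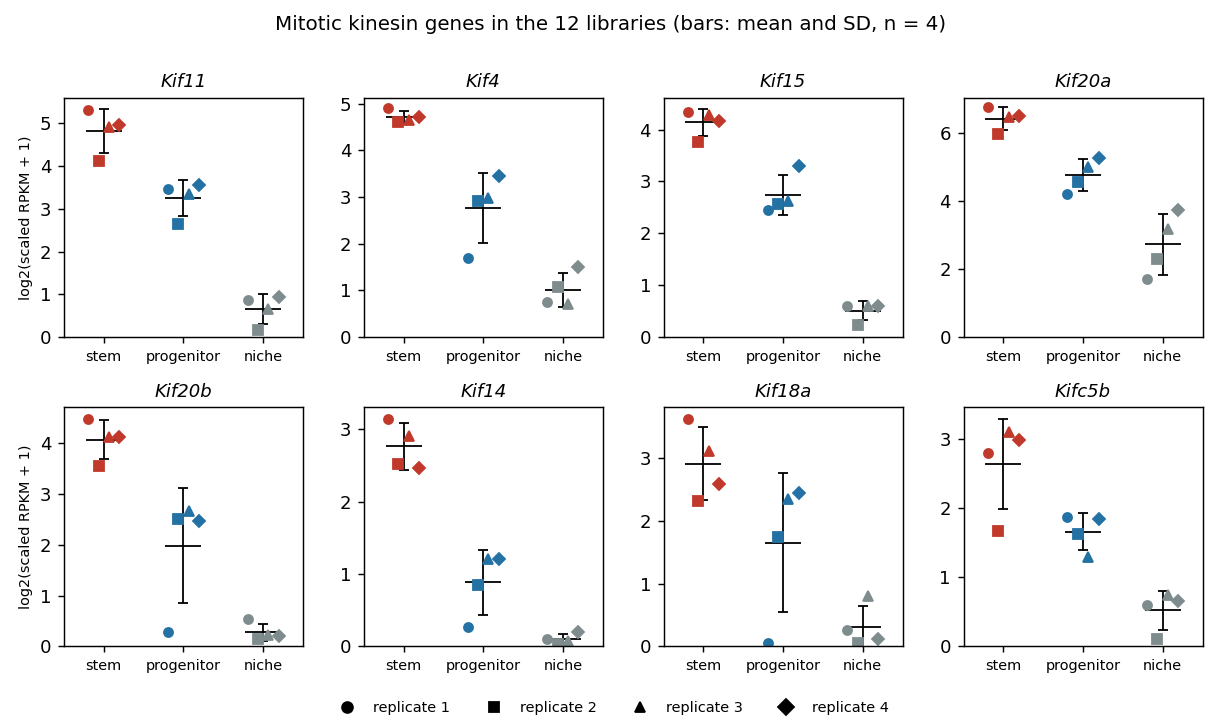
Levels of the 8 mitotic kinesin genes in each library, as log2(scaled RPKM + 1), with stem, progenitor and niche from left to right and bars for mean and SD (n = 4). All 4 stem libraries lie above all 4 niche libraries for each of the 8 genes, and progenitor replicate 1 lies near the niche libraries for Kif20b and Kif18a.

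Stem against progenitor, a comparison of GFP-positive cells with both other markers and without, called 6 of the 8 mitotic members higher in stem at a limma adjusted p under 0.05. Over all 8362 genes tested, 3.74% were called higher. The median log2 fold change of the 8 was 1.62, against -0.06 over all genes tested, and 6 of the 8 had stem libraries wholly above progenitor, as did 11.3% of all genes. Kif20b had the largest change (2.09 ± 0.53, SE, limma adjusted p = 0.024), followed by Kif4 (1.95 ± 0.45, 0.014) and Kif14 (1.88 ± 0.37, 0.0055). Kif20a changed by 1.66 ± 0.44 (limma adjusted p = 0.032), Kif11 by 1.57 ± 0.43 (0.038) and Kif15 by 1.40 ± 0.41 (0.047). The other 2, Kif18a (1.26 ± 0.54, 0.22) and Kifc5b (0.98 ± 0.43, 0.24), were not called. Kifc5b, of the minus-end-directed kinesin-14 family, has near-identical relatives in the mouse genome, so its reads may be shared with them.

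The number called in this comparison depended on single libraries and on the processing, while the direction did not. The count of 6 became 1 without stem replicate 1 and 2 without stem replicate 3 or 4. It became 3 without progenitor replicate 1, 2 or 3. Over all genes, 4.23% to 5.58% were called in either direction when 1 stem or progenitor library was left out, against 7.28% with all libraries. All 8 fold changes stayed positive in each of the 21 alternatives, with medians of 1.20 to 1.86. Kif14 kept its call in all 21 (limma or voom adjusted p 0.0027 to 0.035). Kif4 lost its call without stem replicate 1 (0.053), and Kif20b without stem replicate 1, 3 or 4 (up to 0.083). Kif11 lost its call without stem replicate 1, 3 or 4 or any single progenitor library (up to 0.15). Kif20a lost it without any single stem library or progenitor replicate 1, 2 or 3 (up to 0.11), and Kif15 without any single stem or progenitor library (up to 0.15). With 0.1 RPKM added before the log in place of 1, Kif11, Kif15, Kif20a and Kif20b lost their calls. Over all alternatives the limma adjusted p of Kif20b reached 0.096. Kif20a also lost its call with scaling by library size alone. Kif15 also lost it without the filter on low values and with replicate number as a block in the fit.

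Stem against niche set the same cells beside GFP-negative cells, and all 8 mitotic members were higher in stem, where 11.3% of all genes tested were called higher. The 8 had a median log2 fold change of 3.66, against 0.11 over all genes tested. Kif11 changed by 4.16 ± 0.43 (SE, limma adjusted p = 8.0e-06), Kif20b by 3.80 ± 0.53 (9.8e-05) and Kif4 by 3.70 ± 0.45 (3.0e-05). Kif20a changed by 3.69 ± 0.44 (2.9e-05), Kif15 by 3.63 ± 0.41 (1.4e-05) and Kif14 by 2.66 ± 0.37 (0.00010). Kif18a (2.60 ± 0.54) and Kifc5b (2.12 ± 0.43) completed the 8. Stem lay wholly above niche for all 8, as it did for 12.6% of all genes. All 8 calls held in each of the 21 alternatives.

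These changes are on the log2(RPKM + 1) scale, which compresses genes that sit below 1 RPKM in niche. With voom on the recovered reads, a linear model of log counts with weights, the stem against niche change of Kif14 was 6.48 ± 0.85 (SE, adjusted p = 0.00012), that of Kif20b 6.38 ± 1.08 (0.00075) and that of Kif11 5.87 ± 0.76 (0.00010). The median over the 8 was 5.40 by voom.

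Progenitor against niche called 5 of the 8 mitotic members higher in progenitor, with 6.08% of all genes called higher. The median log2 fold change was 1.73, against 0.18 over all genes tested. Kif11 changed by 2.59 ± 0.43 (SE, limma adjusted p = 0.00097), Kif15 by 2.22 ± 0.41 (0.0019) and Kif20a by 2.03 ± 0.44 (0.0076). Kif4 changed by 1.75 ± 0.45 (0.021) and Kif20b by 1.71 ± 0.53 (0.048). For Kif14 (0.78 ± 0.37, 0.19), Kif18a (1.34 ± 0.54, 0.12) and Kifc5b (1.14 ± 0.43, 0.10) the change was not called. By voom, Kif11 changed by 4.20 ± 0.78 (adjusted p = 0.0024), Kif15 by 3.89 ± 0.67 (0.0014), Kif20b by 3.83 ± 1.17 (0.042) and Kif4 by 2.67 ± 0.68 (0.018). Progenitor lay wholly above niche for 6 of the 8, and for 9.05% of all genes. The count of 5 became 3 without progenitor replicate 2, 3 or 4, where 6.32% to 6.69% of all genes were called in either direction, and 3 without niche replicate 3, where 11.1% were. Kif20b lost its call in 15 of the 21 alternatives (limma adjusted p up to 0.16). It was lost without any single library other than progenitor replicate 1 and niche replicate 1. It was also lost with median-of-ratios scaling, without the filter on low values and with 4 RPKM added before the log. The same held with replicate number as a block and with a fit of only these 2 groups. Kif4 lost its call without progenitor replicate 2, 3 or 4 or niche replicate 3 and with the 2-group fit (up to 0.089). Kif20a lost its call with the 2-group fit (0.054).

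Promoters of the mitotic members are shown because these genes moved together. In mammals the genes of late cell division often carry a cell cycle homology region, TTTGAA or TTTAAA, near the start site, and a nearby CCAAT box, which binds the factor NF-Y. RefSeq promoter windows of GRCm38.p6, from 250 bases before to 50 after a start site, matched 46 of the 62 members. They covered 7 mitotic genes and 9 neuronal genes, the neuronal ones with 11 windows because Map7d2 and Mapre3 have 2 start sites each. Both strands were searched, and TTTAAA reads the same on both. The stretches from 150 bases before to 30 after the start site are given for 5 mitotic kinesins and for Dync1i1, a neuronal dynein part that ran the other way across populations, in capitals where a motif matched on either strand (TTCAAA and ATTGG are the reverse complements).

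Kif11, chr19:37376232-37376411, plus strand: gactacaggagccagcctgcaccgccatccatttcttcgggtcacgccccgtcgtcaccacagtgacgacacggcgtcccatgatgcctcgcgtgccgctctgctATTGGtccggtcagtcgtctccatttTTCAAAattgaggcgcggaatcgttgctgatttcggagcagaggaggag
Kif14, chr1:136467698-136467877, plus strand: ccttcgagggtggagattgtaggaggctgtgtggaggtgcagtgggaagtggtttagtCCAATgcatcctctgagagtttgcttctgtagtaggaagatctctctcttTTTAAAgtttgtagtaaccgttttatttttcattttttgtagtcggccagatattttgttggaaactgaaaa
Kif15, chr9:122950931-122951110, plus strand: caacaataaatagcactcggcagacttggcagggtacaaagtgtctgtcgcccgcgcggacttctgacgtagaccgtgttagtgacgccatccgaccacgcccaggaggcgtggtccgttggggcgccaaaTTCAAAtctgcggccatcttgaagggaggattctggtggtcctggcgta
Kif20b, chr19:34922208-34922387, plus strand: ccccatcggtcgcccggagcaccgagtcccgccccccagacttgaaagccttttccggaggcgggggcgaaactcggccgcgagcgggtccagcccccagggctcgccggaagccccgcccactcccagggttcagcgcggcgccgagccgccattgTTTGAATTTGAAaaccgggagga
Kif4, chrX:100625915-100626094, plus strand: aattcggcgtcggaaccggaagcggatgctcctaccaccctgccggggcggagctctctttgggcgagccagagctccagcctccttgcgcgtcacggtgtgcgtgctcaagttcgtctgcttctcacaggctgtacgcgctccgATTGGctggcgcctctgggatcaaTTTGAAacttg
Dync1i1, chr6:5725489-5725668, plus strand: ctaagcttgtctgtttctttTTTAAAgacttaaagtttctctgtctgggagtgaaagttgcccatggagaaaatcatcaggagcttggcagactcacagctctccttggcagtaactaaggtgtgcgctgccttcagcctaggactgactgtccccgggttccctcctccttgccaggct

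TTTGAA lay in 6 of the 7 mitotic windows, in 1 of the 11 neuronal windows and in 17.9% of all 32851 windows of the table. In Kif11 and Kif15 its first base was 19 bases before the start site, on the opposite strand. Kif20b had a tandem pair, starting 8 and 14 bases after the start site, and Kif4 a match at 20 bases after it. Kifc5b had a match at 30 bases after it, on the opposite strand. The only TTTGAA of Kif14 lay 228 bases before the start site, far from it and outside the stretch printed, as did a second match of Kif15 at 234 bases. TTTAAA lay in 1 of 7 mitotic and 2 of 11 neuronal windows, against 13.2% of all windows. CCAAT lay in 4 of 7 mitotic windows and 1 of 11 neuronal windows, against 37.4% of all windows. In Kif11, a CCAAT match starting 45 bases before the start site stood upstream of the TTTGAA match. The Kif18a window held none of the 3 motifs. A match is a stretch of letters, and binding was not measured.

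**Figure D2:**
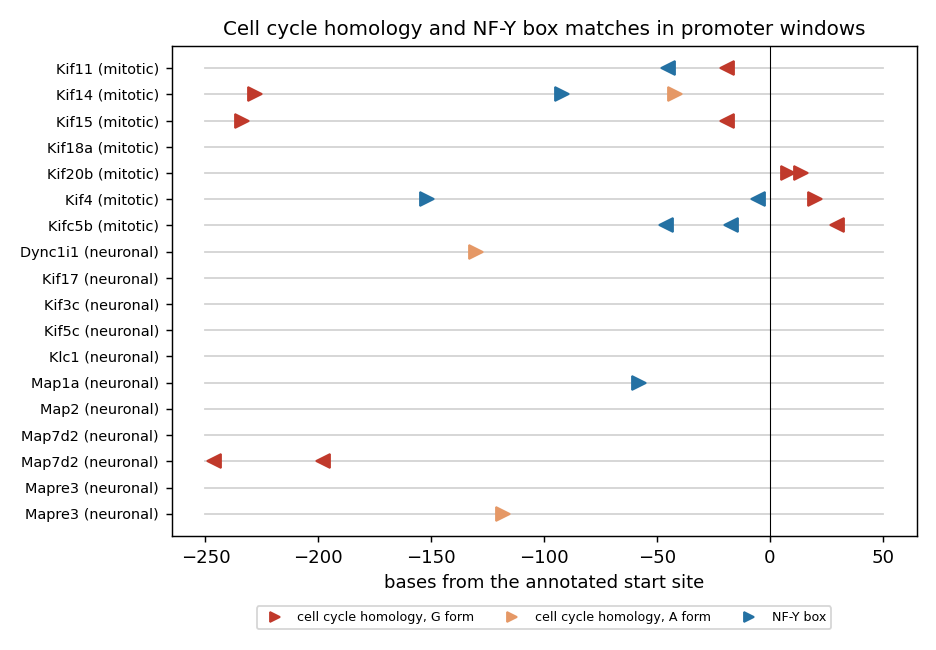
Positions of the cell cycle homology motifs (G form and A form) and of the NF-Y box in the promoter windows of 7 mitotic and 9 neuronal genes, in bases from the annotated start site; triangles point along the strand of the match. The G form appears in 6 of 7 mitotic windows and 1 of 11 neuronal windows.

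Spindle and kinetochore genes outside the family gave counts of the same kind. Of 34 such genes in a list from general knowledge, 14 were in the table and all 14 were tested. In stem against progenitor, 7 were higher and 7 not called, with a median log2 fold change of 1.65. Over all genes, 3.74% were called higher there. In stem against niche, 13 were higher and 1 not called (median 3.72), and in progenitor against niche 8 were higher and 6 not called (median 2.07). The shares called higher over all genes were 11.3% and 6.08%. Plk1, the kinase that drives mitotic entry, averaged 126 RPKM in stem, 18.3 in progenitor and 2.43 in niche. Prc1, which bundles midzone microtubules and binds Kif4, averaged 109 RPKM in stem, 22.6 in progenitor and 2.52 in niche. Nusap1, a spindle microtubule bundler, averaged 76.2 RPKM in stem, 15.9 in progenitor and 1.10 for niche. Plk1 also belongs to the markers of dividing cells above.

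Neuronal members mostly had lower levels in stem than in the other populations, but few were called. In stem against progenitor, 12 of 13 fold changes were below 0, with a median of -0.71, and 1 member was called lower, where 3.54% of all genes were. Stem lay wholly below progenitor for 5 of the 13, and for 13.5% of all genes. In stem against niche, 11 of 13 were below 0, with a median of -1.01, and 1 was called lower, where 10.6% of all genes were. Stem lay wholly below niche for 2 of the 13, and for 10.1% of all genes. In progenitor against niche 8 of 13 were above 0, with a median of 0.15, and 1 was called lower, where 5.67% of all genes were. Progenitor lay wholly below niche for 2 of the 13, and for 6.66% of all genes. With 13 members, 1 call each is close to the shares over all genes and sets the neuronal members little apart.

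Dync1i1, a dynein intermediate chain found mainly in neurons (ENSMUSG00000029757, GRCm38 chromosome 6, 5725639 to 6028039), was the called neuronal member in both comparisons with niche. It was at 0.245, 1.16, 1.74 and 0 RPKM in stem, at 0.191, 1.30, 3.82 and 2.98 in progenitor and at 19.1, 25.1, 42.3 and 28.0 in niche. All niche libraries, replicate 1 included, lay above all others, while stem and progenitor overlapped. The log2 fold change was -4.11 ± 0.53 in stem against niche (SE, limma adjusted p = 5.4e-05) and -3.40 ± 0.53 in progenitor against niche (0.00058). By voom these were -6.67 ± 1.17 and -4.29 ± 0.93. Both calls held in each of the 21 alternatives. Stem and progenitor differed by -0.71 ± 0.53 (limma adjusted p = 0.60). Its broadly expressed relative Dync1i2 averaged 41.9 ± 4.86 RPKM in stem, 46.3 ± 9.65 in progenitor and 28.7 ± 10.9 in niche (SD, n = 4) and was not called in any comparison. Dync1i1 thus had far lower levels than Dync1i2 in stem and progenitor and about the same mean in niche.

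Map6, which makes neuronal microtubules resist cold and drugs, was the called neuronal member in stem against progenitor. Its levels were 0.398, 0.426, 0.125 and 0.412 RPKM in stem, 5.24, 4.51, 4.38 and 4.84 in progenitor and 0.179, 2.32, 6.82 and 4.03 in niche. Stem lay wholly below progenitor, on 8 to 26 reads a library against 305 to 575, while the niche libraries spread across both. The log2 fold change was -2.10 ± 0.51 (SE, limma adjusted p = 0.019), and -3.91 ± 0.90 by voom (0.014). The call was lost without any single stem library or progenitor replicate 2, 3 or 4 (up to 0.062). Against niche, stem changed by -1.40 ± 0.51 (0.063), which was not called.

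Niche replicate 1 had low values of most neuronal motors and tracks. Kif5c, a neuronal conventional kinesin heavy chain, was at 6.00, 3.38, 3.95 and 2.42 RPKM in stem, at 6.44, 17.2, 18.5 and 17.6 in progenitor and at 0.681, 15.4, 26.7 and 41.8 in niche. Map1a, a stabiliser of mature neurites, was at 3.57, 3.27, 3.17 and 2.56 RPKM in stem, at 2.44, 3.81, 4.53 and 4.85 in progenitor and at 0.230, 8.48, 19.0 and 25.5 in niche. Mapre3, a plus-end-tracking protein enriched in neurons, was at 0.871, 3.24, 1.95 and 4.77 RPKM in stem, at 9.55, 7.79, 9.003 and 6.94 in progenitor and at 0.265, 10.6, 25.8 and 14.8 in niche. For these 3 genes, niche replicate 1 lay below every stem library and the other 3 niche libraries above every stem library. The mature neuron markers summed to 119 RPKM in niche replicate 1 and to 310 to 570 in the other niche libraries. Its 3 listed of 5 red cell markers, among them alpha-globin, summed to 1043314 RPKM, against 36933 to 180191 in the other niche libraries. Their part in the neuronal values was not tested.

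Without niche replicate 1 and progenitor replicate 1, the neuronal counts were larger. Stem against progenitor then called 4 of 13 neuronal members lower (Kif21b, Kif3c, Kif5c and Map6), with 13.3% of all genes called in either direction. Stem against niche called 7 of 13 lower (Klc1, Kif3c, Kif5c, Map1a, Mapre3, Dync1i1 and Map6), with 35.1% of all genes called in either direction. Progenitor against niche called 3 lower (Klc1, Map1a and Dync1i1), with 23.4% of all genes called, and the median of the 13 changed sign, to -0.61. Leaving out niche replicate 1 alone gave 4 neuronal members called in stem against progenitor, 7 in stem against niche and 2 in progenitor against niche, with a median of -0.95 in the last. Over all genes, 12.6%, 29.1% and 19.2% were then called in these comparisons, so 2 of 13 is near the share over all genes. Without progenitor replicate 1 alone, 2 were called in stem against progenitor, with 5.17% of all genes called, and 2 in progenitor against niche, with 12.9%. The mitotic counts without both libraries were 6, 8 and 6 of 8.

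Klc1, a kinesin light chain that links the motor to cargo, was at 5.27, 3.14, 5.72 and 6.41 RPKM in stem, at 7.30, 5.94, 5.65 and 4.49 in progenitor and at 9.48, 12.7, 13.4 and 9.20 in niche. Niche lay wholly above the other populations, yet neither comparison was called with all 12 libraries (limma adjusted p = 0.085 for stem and 0.19 for progenitor). Kif21b, a motor of dendritic transport, stayed between 0.284 and 0.464 RPKM in the 4 stem libraries. It was at 0.273, 7.58, 6.74 and 6.88 RPKM in progenitor, so that replicate 1 alone lay below stem, and at 0.251, 5.77, 1.45 and 0.0655 in niche. Kif3c, a kinesin-2 motor of neurons, averaged 4.39 ± 1.71 RPKM in stem, 13.4 ± 1.95 in progenitor and 9.39 ± 6.83 in niche (SD, n = 4), with stem wholly below progenitor and no call (limma adjusted p = 0.22).

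The 2 best-known neuronal track proteins had substantial levels in stem. Map2, the dendritic marker, was at 28.6, 16.4, 25.5 and 27.3 RPKM in stem, at 13.8, 24.7, 24.4 and 29.0 in progenitor and at 2.20, 11.1, 28.6 and 18.9 in niche. The groups overlapped, and no comparison was called (log2 fold changes of 0.10 ± 0.57, 1.02 ± 0.57 and 0.92 ± 0.57 for stem against progenitor, stem against niche and progenitor against niche). Mapt, which encodes tau, was at 36.0, 18.8, 40.8 and 40.3 RPKM in stem, at 41.4, 52.2, 54.5 and 47.5 in progenitor and at 21.2, 25.1, 49.2 and 27.9 in niche. Stem lay wholly below progenitor but the change of -0.56 ± 0.35 was not called (limma adjusted p = 0.48). Over the 6 neuronal microtubule-associated proteins, none was called in stem against niche or progenitor against niche by limma or voom, with 1 and 0 at an unadjusted p under 0.05. The remaining neuronal members (Kif17, Kifc2 and Map7d2) were not called in any comparison.

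**Figure D3:**
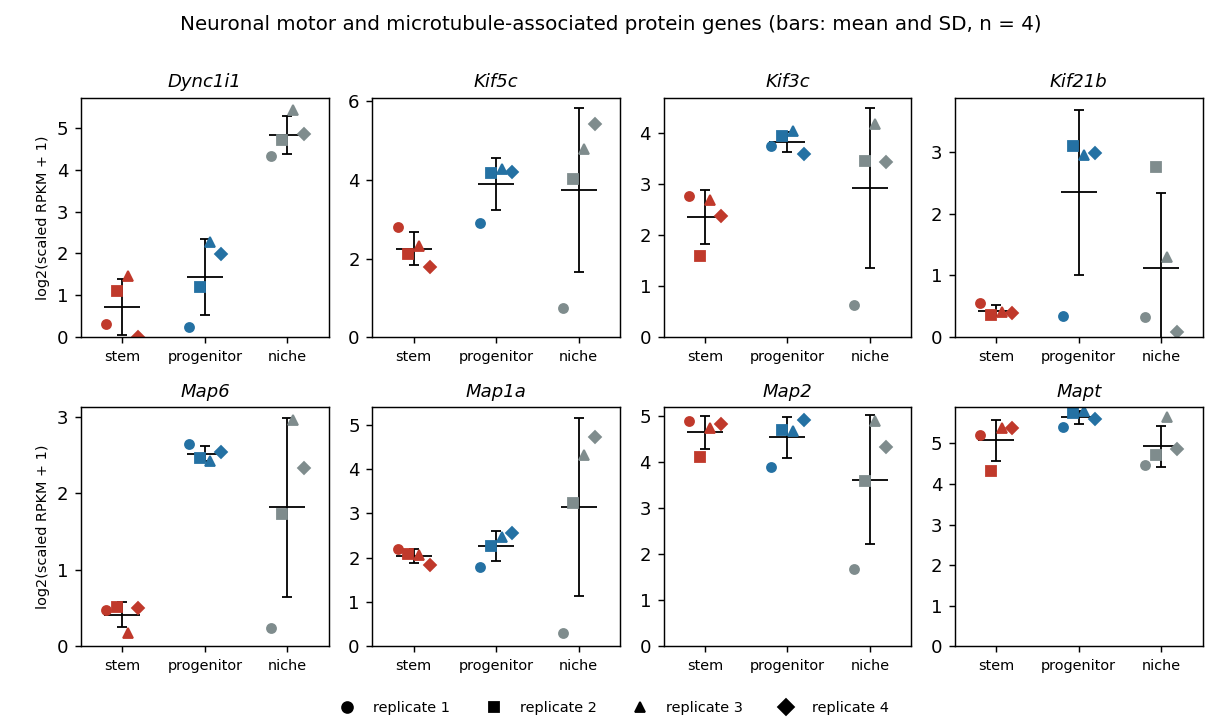
Levels of 8 neuronal motor and microtubule-associated protein genes in each library, as log2(scaled RPKM + 1), with stem, progenitor and niche from left to right and bars for mean and SD (n = 4). Dync1i1 is higher in all 4 niche libraries than in any stem or progenitor library. Niche replicate 1 is the lowest niche library for Dync1i1, Kif5c, Kif3c, Map6, Map1a, Map2 and Mapt.

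Set against each other within a library, the 2 lists gave an order of the populations. The mean over the 8 mitotic members minus the mean over the 13 neuronal members, on the log2(RPKM + 1) scale, was 2.30, 1.86, 1.99 and 2.01 in stem replicates 1 to 4. In progenitor it was -0.39, -0.65, -0.52 and -0.22, and in niche -0.65, -2.74, -3.10 and -2.53. Stem lay above 0 and the other libraries below it. Progenitor replicate 2 and niche replicate 1 met at -0.65, and the other 3 niche libraries lay below every progenitor library. The group means were 2.04 ± 0.19 for stem, -0.45 ± 0.18 for progenitor and -2.25 ± 1.10 for niche (SD, n = 4). Both lists shaped the step from stem, while the group means of progenitor and niche differed mainly in the mitotic list. The mitotic mean was 4.06 ± 0.36 for stem, 2.46 ± 0.50 for progenitor and 0.76 ± 0.21 for niche. The neuronal mean was 2.02 ± 0.22 for stem, 2.91 ± 0.49 for progenitor and 3.02 ± 1.17 for niche. Its niche values were 1.33 in replicate 1 and 3.26 to 3.97 in the others, against 2.17 to 3.20 in progenitor.

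**Figure D4:**
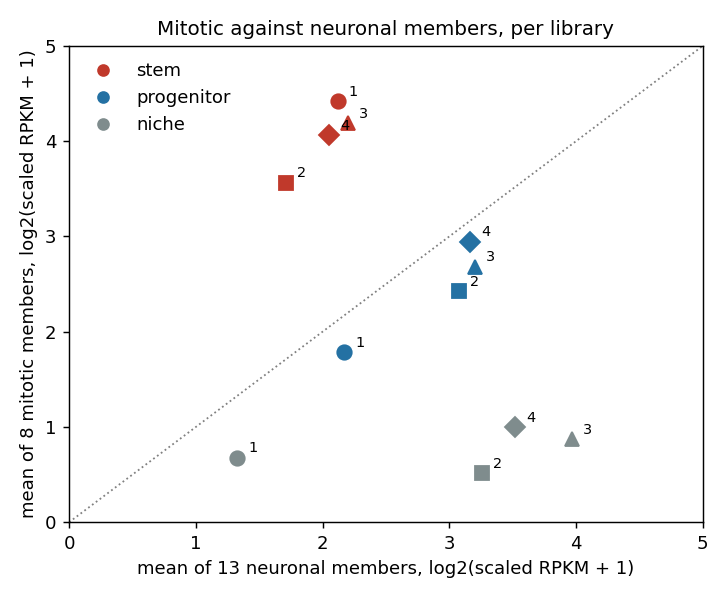
Mean level of the 8 mitotic members against mean level of the 13 neuronal members in each library, both as log2(scaled RPKM + 1), with replicate numbers beside the points and a dotted line of equality. Stem libraries lie above the line, at differences of 1.86 to 2.30, and progenitor and niche libraries below it.

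Among tubulins, Tubb6 stood out. It encodes a beta tubulin of broad distribution (ENSMUSG00000001473, GRCm38 chromosome 18, 67390717 to 67402749). Its levels were 211, 168, 169 and 208 RPKM in stem, 26.4, 19.97, 26.4 and 41.0 in progenitor and 3.58, 1.98, 18.2 and 17.2 in niche. The 3 groups did not overlap, and niche replicates 1 and 2 lay well below niche replicates 3 and 4. Its log2 fold change was 2.73 ± 0.52 in stem against progenitor (SE, limma adjusted p = 0.0044), the largest of the 58 tested members there. It was 4.50 ± 0.52 in stem against niche (2.1e-05), again the largest, and 1.78 ± 0.52 in progenitor against niche (0.038). The first 2 calls held in each of the 21 alternatives. The third was lost in 14 of the 21 (limma adjusted p up to 0.14). It was lost without any single library other than niche replicate 3 or 4, and without both libraries that stood apart. It was also lost with median-of-ratios scaling, without the filter on low values and with a fit of only these 2 groups. The part of the macrophage and dividing cell markers given above in these values was not tested.

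Tuba1c, an alpha tubulin, had the highest levels of all members, averaging 3106 ± 618 RPKM in stem, 4308 ± 2428 in progenitor and 2446 ± 1586 in niche (SD, n = 4). Its coding sequence is nearly that of other alpha tubulin genes, and Tubb4b-ps1 is a processed pseudogene of a beta tubulin, so the reads of both may come from relatives. With all 12 libraries neither was called, nor was Tuba8. Without niche replicate 1 and progenitor replicate 1, Tuba1c was called higher in stem (0.82 ± 0.18, SE, limma adjusted p = 0.0042) and in progenitor (0.83 ± 0.19, 0.0098) than in niche. Tubb4b-ps1 was then called higher in stem than in progenitor (1.38 ± 0.25, 0.0044) and in niche (0.73 ± 0.25, 0.043). Tubg1, the gamma tubulin that seeds microtubules at centrosomes, was at 84.1, 48.6, 72.5 and 63.1 RPKM in stem, at 57.0, 44.3, 39.8 and 54.7 in progenitor and at 58.5, 58.4, 16.1 and 18.8 in niche. The groups overlapped and no change was called with all 12 libraries (stem against niche 1.01 ± 0.41, SE, limma adjusted p = 0.094). Without the 2 libraries that stood apart, Tubg1 was called higher in stem than in niche (1.22 ± 0.38, 0.026). Of the 5 nucleation genes, which also include Tubg2, Tube1 and the gamma-tubulin complex genes Tubgcp4 and Tubgcp5, only Tubgcp5 was called with all 12 libraries. It averaged 13.3 ± 5.03 RPKM in stem, 11.5 ± 4.55 in progenitor and 3.90 ± 3.05 in niche (SD, n = 4). It was higher in stem than in niche by 1.73 ± 0.55 (limma adjusted p = 0.036), a call that voom did not make. None of the 5 was called in stem against progenitor by limma or voom, with 0 at an unadjusted p under 0.05, or in progenitor against niche, with 2. In stem against niche, where 1 of the 5 was called, 21.8% of all genes were. Without the 2 libraries that stood apart, 3 were higher in stem than in niche and 2 higher in progenitor than in niche. Over all genes, 35.1% and 23.4% were then called in either direction.

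Broad microtubule-associated proteins moved in both directions. Stmn1, which sequesters tubulin dimers and is abundant in dividing and immature cells, was at 1247, 886, 1522 and 1483 RPKM in stem, at 3076, 1754, 1921 and 1696 in progenitor and at 1656, 613, 416 and 493 in niche. Progenitor lay wholly above the other populations, and replicate 1 was the highest library of progenitor and of niche. Stmn1 was higher in progenitor than in niche by 1.60 ± 0.38 (SE, limma adjusted p = 0.012), a call lost with median-of-ratios scaling and with a fit of only these 2 groups (up to 0.085). Its change of -0.70 ± 0.38 in stem against progenitor was not called (0.37). Without the 2 libraries that stood apart, Stmn1 was also called higher in stem than in niche (1.25 ± 0.18, 0.00028). Mapre1, the plus-end-tracking protein EB1, was at 98.2, 69.5, 87.9 and 93.3 RPKM in stem, at 47.4, 55.1, 52.5 and 55.7 in progenitor and at 10.6, 36.9, 26.1 and 30.4 in niche. The groups formed 3 separate steps. With all 12 libraries the call was stem against niche (1.82 ± 0.35, limma adjusted p = 0.0015), which held in all alternatives. Without the 2 libraries that stood apart, Mapre1 was also higher in stem than in progenitor (0.67 ± 0.18, 0.032) and in progenitor than in niche (0.72 ± 0.20, 0.021).

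The LC3 genes, whose products coat autophagosomes and were first found on microtubules, ran lower in stem. Map1lc3b was at 248, 236, 237 and 214 RPKM in stem, at 613, 444, 462 and 407 in progenitor and at 428, 266, 286 and 378 in niche. Stem lay wholly below both other populations, and the stem against progenitor change of -1.03 ± 0.24 was called (SE, limma adjusted p = 0.016). That call was lost without stem replicate 4 and with median-of-ratios scaling (up to 0.11). Map1lc3a was at 24.9, 25.0, 19.9 and 19.3 RPKM in stem, at 95.9, 42.6, 45.2 and 43.9 in progenitor and at 231, 91.8, 63.8 and 88.5 in niche. Its stem libraries were also wholly below the others, and stem against niche was called (-2.19 ± 0.39, limma adjusted p = 0.00088). Without the 2 libraries that stood apart, Map1lc3a was also lower in stem than in progenitor (-0.95 ± 0.20, 0.010) and in progenitor than in niche (-0.95 ± 0.22, 0.0086). Map1lc3b was then also lower in stem than in niche (-0.47 ± 0.15, 0.027). Map7, a recruiter of kinesin-1, averaged 0.418 ± 0.326 RPKM in stem, 2.33 ± 1.76 in progenitor and 4.20 ± 2.73 in niche (SD, n = 4). It was called lower in stem than in niche (-1.66 ± 0.56, limma adjusted p = 0.045), with niche replicate 1 at 0.461 inside the stem range. Without that library the change was -2.32. The call was lost without any single stem library, progenitor replicate 2 or 4 or niche replicate 2, 3 or 4 (up to 0.125). It was also lost with scaling by library size alone and without the filter on low values. The same held with 0.1 RPKM added before the log in place of 1 and with a fit of only these 2 groups. Map4, the common stabiliser outside neurons, averaged 12.8 ± 3.80 RPKM in stem, 12.8 ± 4.04 in progenitor and 11.9 ± 4.86 in niche (SD, n = 4), with no call. Map1s and Mapre2 were not called either. Without the 2 libraries that stood apart, Map7 was also called lower in stem than in progenitor (-1.51 ± 0.38, 0.021).

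Of the 7 members grouped here as cytoplasmic dynein, the 2 called with all 12 libraries were light chain copies. The heavy chain gene Dync1h1, the motor itself, averaged 10.3 ± 1.53 RPKM in stem, 9.67 ± 0.850 in progenitor and 16.9 ± 12.7 in niche (SD, n = 4), where replicate 1 was at 1.56 and the other 3 at 13.5 to 31.8. No change was called in it with all 12 libraries, nor in Dync1i2, Dync1li1, Dynlrb1 or Dynlrb2. Dynlrb2 ranged from 4.52 to 9.08 RPKM in stem, wholly below progenitor at 14.5 to 50.8, and from 0.510 to 60.7 in niche. Without the 2 libraries that stood apart, Dync1h1 was lower in stem (-1.04 ± 0.30, SE, limma adjusted p = 0.019) and in progenitor (-1.17 ± 0.32, 0.022) than in niche. Dynlt1b, a light chain of the Tctex family, was at 413, 474, 697 and 534 RPKM in stem, at 868, 434, 432 and 410 in progenitor and at 337, 184, 125 and 181 in niche. It was higher in stem than in niche by 1.42 ± 0.33 (SE, limma adjusted p = 0.0064) and higher in progenitor than in niche by 1.39 ± 0.33 (0.014). Dynlt1c gave 1.32 ± 0.34 and 1.38 ± 0.34 for the same comparisons. The ratio of Dynlt1b to Dynlt1c stayed between 4.66 and 5.14 in all 12 libraries. They are near-identical copies on chromosome 17 whose reads may have been split between them, so they are uncertain and are best read as 1 measurement. In stem against progenitor, 0 of the 7 dynein genes were called by limma and by voom, with 1 at an unadjusted p under 0.05.

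Kinesins placed here in a broad cargo group and genes placed in a cilium group gave no call in any comparison. Of 4 tested kinesins of the cargo group (Kif13b, Kif1c, Kif26b and Kif3b), 0 were called by limma or voom. In each comparison 0 had an unadjusted p under 0.05. Of 9 tested cilium motors, 0 were called by limma or voom, with 1 at an unadjusted p under 0.05 in stem against progenitor and 0 in the others. Kif3a, which drives transport into cilia, was at 38.9, 37.3, 31.7 and 26.3 RPKM in stem, at 16.4, 52.7, 55.3 and 51.7 in progenitor and at 1.65, 40.1, 51.0 and 19.8 in niche. Replicate 1 was the lowest library of both progenitor and niche. Dync2li1, of the dynein that returns cargo from cilia, averaged 36.6 ± 7.48 RPKM in stem, 51.2 ± 9.25 in progenitor and 49.2 ± 42.5 in niche (SD, n = 4). Of 6 ependymal markers, 3 were listed. Ccdc153 averaged 0.414 RPKM in stem, 10.3 in progenitor and 0.0852 in niche, and Sntn averaged 0.246 in stem, 3.26 in progenitor and 0.113 in niche, while Ttr, also a gene of the choroid plexus, averaged 39.0 in stem, 222 in progenitor and 7244 in niche. What part such cells had in the motor values was not tested. The axonemal dynein heavy chains that beat motile cilia (Dnah5, Dnah7b, Dnah7c, Dnah8 and Dnah10) stayed at or below 1.45 RPKM in stem, 1.83 in progenitor and 1.99 in niche. Dnah7b and Dnah7c are neighbouring near-identical copies, which makes their separate values uncertain. Kif6, Kif9 and Kif19a, also linked to motile cilia, reached at most 1.73 RPKM in stem, 3.98 in progenitor and 3.17 in niche.

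Another 4 members had few reads and were not tested. Kif26a had 1 to 9 reads in each stem library, 1 to 8 in each progenitor library and 4 to 65 in each niche library. Dnah10 had at most 9 reads in stem, at most 9 in progenitor and none in niche. The antisense genes Dnah2os and Kif16bos had at most 12 and 7 reads in stem, at most 8 and 11 in progenitor and at most 1 and 0 in niche, and the use of strand in counting is not given in the sources used here.

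**Figure D5:**
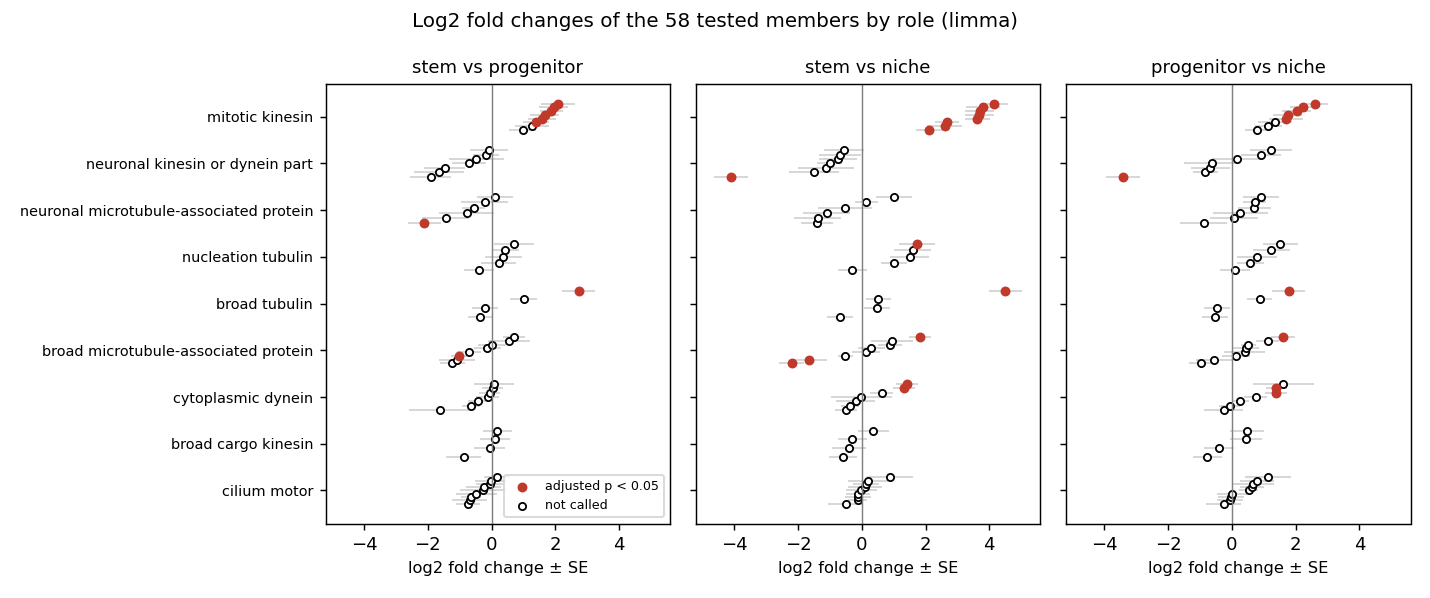
Log2 fold changes (± SE) of the 58 tested members by role in stem against progenitor, stem against niche and progenitor against niche, filled where the limma adjusted p was under 0.05. Mitotic kinesins lie right of 0 in all 3 panels, Tubb6 is the filled point among broad tubulins, and Dync1i1 is the filled point far left among neuronal motors in both comparisons with niche.

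Over all roles, 9 tested members were called in stem against progenitor, 7 higher and 2 lower, where 7.28% of all genes were called. In stem against niche 16 were called, 13 higher and 3 lower, where 21.8% of all genes were called. In progenitor against niche 10 were called, 9 higher and 1 lower, where 11.7% of all genes were called. Mitotic kinesins made up 6 of the 9, 8 of the 16 and 5 of the 10. The count of 9 became 3 without stem replicate 1 or 4, 4 without stem replicate 3, 5 without progenitor replicate 2 or 3 and 14 without niche replicate 1. Over all genes, 4.81% were called without stem replicate 1, 5.04% without stem replicate 4 and 5.43% without stem replicate 3. The shares were 4.80% and 4.79% without progenitor replicates 2 and 3, and 12.6% without niche replicate 1. Without stem replicate 2, 5 members were higher and 1 lower, with 4.23% of all genes called. Without progenitor replicate 1, 4 were higher and 3 lower, with 5.17%. The members' count therefore did not follow the share over all genes in step.

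Partner genes of the other roles gave scattered calls. Over all genes, 3.74% were called higher in stem against progenitor, 11.3% in stem against niche and 6.08% in progenitor against niche. The shares called lower were 3.54%, 10.6% and 5.67% in the same order, and single calls in a list of 10 to 16 genes lie near such shares. Of 10 tested dynactin and dynein adaptor genes, 1 was called in stem against niche, Nde1, a dynein regulator also needed in dividing neural progenitors, higher by 2.44 ± 0.56 (SE, limma adjusted p = 0.0055). None of them was called in the other comparisons by limma, with 2 at an unadjusted p under 0.05 in stem against progenitor and 0 in progenitor against niche, and with 2 and 0 called by voom. Of 10 kinesin cargo adaptors, 1 was lower in stem than in progenitor (Fez1, a kinesin-1 adaptor of axon growth, -1.62 ± 0.28, 0.0023). In stem against niche 4 were lower, Arl8a, Arl8b, Clstn1 and Fez1, and 1 was lower in progenitor than in niche, Arl8b, which couples lysosomes to kinesin (-1.24 ± 0.36, 0.037). Of 16 tubulin folding, modification and severing genes, 0 were called in stem against progenitor by limma or voom, with 1 at an unadjusted p under 0.05. In stem against niche 1 of them was called, Ttll4 (1.30 ± 0.44, 0.046), and in progenitor against niche 1, Svbp (1.13 ± 0.35, 0.046).

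Of 12 neurite microtubule regulators, Ank3, which anchors the axon initial segment, was lower in stem than in progenitor (-2.13 ± 0.61, SE, limma adjusted p = 0.046) and in niche (-2.83 ± 0.61, 0.0037). Nefl, a neurofilament gene, was lower in stem (-3.49 ± 0.96, 0.017) and in progenitor (-3.51 ± 0.96, 0.027) than in niche. Dpysl5, a regulator of growing neurites, was higher in stem (1.79 ± 0.47, 0.013) and in progenitor (3.10 ± 0.47, 0.00042) than in niche, and its relative Crmp1 was higher in progenitor than in niche (2.24 ± 0.61, 0.026). Of 10 tested motile cilium genes, 3 were lower in stem than in progenitor, Ccdc153, Sntn and Dnaic1, where 3.54% of all genes were called lower. Dnaic1, an axonemal dynein intermediate chain, was also lower in stem than in niche (-3.06 ± 0.51, 0.00048). Ccdc153 (3.15 ± 0.47, 0.00040) and Sntn (1.86 ± 0.36, 0.0028) were higher in progenitor than in niche. Ccdc153 and Sntn are also ependymal markers and were at 0 in at least 1 library.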

How the data were processed

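RNA of sorted cells was sequenced in 12 libraries, grouped by the markers in the labels. The deposited table holds log2 values, read as log2(RPKM + 1). The build was GRCm38 (mm10), per the submitters' processing notes; the sources used here name no aligner, counter or rule for listing genes. Undoing the log gave whole reads, within 0.0001 reads, for 100% of values above 0. Exon length equalled the annotated one for 1237 genes. For 9273 it was the shortest length that made all reads whole, a weaker check. Recovered reads summed to 100.02% to 100.04% of the library totals. A floor of 3 reads was 0.131 to 0.395 CPM. The RNA was amplified without molecular identifiers, so floors and read counts cover counting error only.

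Genes with 10 reads per median library in at least 4 libraries and at least 15 reads in all were kept (8362). RPKM was scaled by TMM factors (30% and 5% trims), and log2(RPKM + 1) was tested with limma 3.58.1 in R 4.3.3 (trend, robust), 1 mean per population over all 12 libraries. Adjusted p-values are two-sided, by Benjamini-Hochberg over all genes tested, with a threshold of 0.05. The script was checked on simulated data. Replicate pairs differed by more than sampling noise (lowest chi-square per degree of freedom 38.9 in stem, 41.7 in progenitor and 118 in niche). Symbols were matched for 10579 identifiers, and positions come from the GENCODE annotation of GRCm38.

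The members, roles, partner lists and markers were chosen with earlier results of these data known, and the promoter motifs after these values were seen. Members given with values were, per comparison and direction, up to 6 called ones with the largest change, plus a core of 37 genes of which 19 were members, 24 in all. Other members are given to complete their role, chosen after their values were seen, as were Egfr and Sox2. Partner genes named are the 3 called with the largest change per list, or every called one where 5 or fewer were called.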

Additional observations from a re-analysis of the deposited data

Results flagged for a closer look

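In each population, the highest or lowest library was compared with the other 3 for the 24 members named by rule, 72 groups of 4 in all. In 11 of them that library's gap to its neighbour took more of the whole range than Dixon's 95% limit. Chance flags about 1 in 20 such groups.

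Progenitor replicate 1 gave 6 of the 11. It was low for Kif20b, at 0.223 RPKM against 4.56 to 5.34 in the other progenitor libraries, for Kif3a, at 16.4 against 51.7 to 55.3, for Kif5c, at 6.44 against 17.2 to 18.5, and for Map4, at 6.77 against 14.4 to 15.5. It was high for Map1lc3a, at 95.9 RPKM against 42.6 to 45.2, and for Stmn1, at 3076 against 1696 to 1921. Niche replicate 1 was high for the same 2 genes, with Map1lc3a at 231 RPKM against 63.8 to 91.8 and Stmn1 at 1656 against 416 to 613.

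Kif15 was high in progenitor replicate 4, at 8.88 RPKM against 4.46 to 5.16, and low in niche replicate 2, at 0.184 against 0.508 to 0.526. Map6 was low in stem replicate 3, at 0.125 RPKM against 0.398 to 0.426.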

How the results depend on the processing

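Each comparison was repeated under 21 alternatives. Of 588 repeats of the 28 named calls, 496 kept direction and call, 92 lost the call and 0 changed sign. With a pseudocount of 0.1 RPKM, stem against progenitor called 5 members, of which 2 mitotic, with 6.29% of all genes called. With only the 2 groups compared, it called 16 members and 5 neuronal ones, and progenitor against niche called 3 members, 2 of them mitotic. Calls over all genes moved too, to 17.6% for stem against progenitor and 6.81% for progenitor against niche. Median-of-ratios scaling gave 2 neuronal calls in stem against niche and 5 member calls in progenitor against niche. Over all genes, 21.1% and 11.1% were then called. Library size alone, under which the median of all genes moved to 0.58 for stem against niche and 0.62 for progenitor against niche, gave 18 member and 2 neuronal calls in progenitor against niche, with 22.0% of all genes called. Without both libraries that stand apart, a setting planned with earlier results known, the members called were 16, 29 and 18 in stem against progenitor, stem against niche and progenitor against niche, and the neuronal calls 4, 7 and 3. Over all genes, 13.3%, 35.1% and 23.4% were then called in the same order. The cause of the moves under these settings was not tested.

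Leaving out 1 library at a time, members called ran from 3 to 14 in stem against progenitor, 14 to 24 in stem against niche and 7 to 13 in progenitor against niche. Over all genes, the shares called ran from 4.23% to 12.6%, 14.9% to 29.1% and 6.32% to 19.2%. Mitotic calls ran from 1 to 6, 8 to 8 and 3 to 6, and neuronal calls from 0 to 4, 1 to 7 and 1 to 2, in the same order. Correlations of deviations between same-numbered libraries ran from -0.13 to 0.21, and 2 of 12 exceeded 0.1. Both were between progenitor and niche, at 0.16 for replicate 1 and 0.21 for replicate 3. Some differently numbered pairs reached similar values, such as 0.14 for stem replicate 1 with progenitor replicate 3. These values do not settle whether replicate numbers pair the libraries. With the replicate block, 9, 16 and 9 members were called, and mitotic calls were 5, 8 and 4. Over all genes, 7.37%, 21.9% and 11.3% were then called. The low niche reads of several mitotic kinesins, such as 3 to 8 for Kif14, limit how well their fold changes are known.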
